A study of Mus musculus with 3 samples.

Results

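The cytosolic ribosomal protein genes were taken by symbol: every protein-coding gene of the count table whose GENCODE M21 symbol starts with Rpl or Rps and a digit, with Rpsa, Rplp0, Rplp1 and Rplp2, and without the S6 kinase genes. The rule found 90 genes of 19723, on 20 chromosomes. Of these, 77 encode core subunit proteins, 46 of the large and 31 of the small subunit. A further 7 are paralogues, copies of a core gene at their own locus, 5 have pseudogene-type symbols but are annotated as protein coding, and Rps19bp1 encodes a protein that binds a subunit protein and is no subunit itself. The rule leaves out ribosomal proteins with other symbols, of which Fau and Rack1 are given near the end.

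Expression was measured by RNA sequencing in 3 cell pools from female BALB/c mice aged 6 to 8 weeks. Myeloid-derived suppressor cells (MDSCs), immature myeloid cells that restrain T cells, were sorted from 20 pooled tumours of alisertib-treated mice and from 20 pooled tumours of control mice, which the labels call both untreated and control treated. Alisertib inhibits the mitotic kinase Aurora A. The third pool was neutrophils sorted from bone marrow, taken from 5 wild-type mice with no stated treatment. Each group is 1 library, so nothing measures the spread between animals, and the intervals below cover counting error only. The labels state no tumour line, dose or sort marker. Because these are bulk pools, more cells of a type and more RNA per cell cannot be told apart.

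A ribosome is built from ribosomal RNAs and many proteins, most of them in a single copy, in a large subunit that joins amino acids and a small subunit that reads the mRNA. The proteins are made from separate genes and are used in nearly equal numbers. Their mRNAs are short and abundant, and most start with a terminal oligopyrimidine (TOP) tract, a run of C and T at the cap through which the kinase mTORC1 and the binding protein LARP1 set their translation. Neutrophils lose much of their capacity to make ribosomes as they mature in the bone marrow.

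The annotated starts of several genes that carry the results below are shown to let the run of C and T be seen beside the values. Each line gives 30 bases from RefSeq (GRCm38.p6), 10 before the annotated start and 20 from it, on the gene's strand, with the longest run of C and T touching the 10 bases on either side of the start in capitals. Where a gene has several annotated starts, the start with the longest such run is shown, so the lines favour long runs. The first 4 are the genes with the highest alisertib to control ratio, followed by Rps9, which had the lowest among genes at 10 CPM or more (CPM, the counts per 1e6 of a library after scaling by TMM, a trimmed mean of the ratios between libraries), and by genes that stood apart between tumour and bone marrow or in level.
Rpl35, chr2:39005112-39005141, minus strand: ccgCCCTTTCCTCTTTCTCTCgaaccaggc
Rpl12, chr2:32961702-32961731, plus strand: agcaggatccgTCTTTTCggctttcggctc
Rpl10a, chr17:28328461-28328490, plus strand: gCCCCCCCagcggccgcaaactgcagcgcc
Rpl5, chr5:107900518-107900547, plus strand: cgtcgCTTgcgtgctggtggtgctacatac
Rps9, chr7:3704031-3704060, plus strand: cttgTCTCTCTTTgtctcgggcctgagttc
Rps27, chr3:90213629-90213658, minus strand: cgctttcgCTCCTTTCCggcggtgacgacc
Rpl10, chrX:74270806-74270835, plus strand: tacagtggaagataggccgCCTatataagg
Rps28, chr17:33824543-33824572, minus strand: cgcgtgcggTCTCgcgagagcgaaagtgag
Rpl41, chr10:128549149-128549178, minus strand: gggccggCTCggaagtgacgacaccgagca
Rplp2, chr7:141447641-141447670, plus strand: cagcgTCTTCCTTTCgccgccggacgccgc
Rpl18, chr7:45718061-45718090, plus strand: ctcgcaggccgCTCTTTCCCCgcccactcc
Rpl24, chr16:55966265-55966294, plus strand: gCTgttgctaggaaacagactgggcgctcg

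The run is 18 bases long at Rpl35, 9 at Rps9 and Rps27, and 3 at Rpl5, Rpl10 and Rpl41. Among the genes shown, those with a high ratio in a comparison thus had both long and short runs. At the low end of control over bone marrow, the run was 21 bases at Rpl7a, 14 at Rpl4 and 2 at the paralogue Rpl7l1, which are not shown. RefSeq starts are annotated transcript starts and were not measured in these cells, and a different first base would move the run.

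Among the 57 of 77 core genes with an entry in the RefSeq table, 35.1% had a start inside a run of at least 5, against 11.8% of 27025 genes. Here and below, a gene with several annotated starts was counted if any of them had the feature. A run of at least 8 within 10 bases of the start was found for 47.4% and 16.1%. Of the short words searched on both strands in the 300 bases from 250 before to 50 after the start, CCGGAA (an ETS-type core) was in 56.1% of the core genes and 16.7% of all, GGGCGG (an SP-type core) in 61.4% and 38.2%, and AAGATGG (a YY1-type core) in 15.8% and 7.28%. CACGTG (an E-box) was in 10.5% and 8.09%, and the TATA word TATAAA in 10.5% and 15.7%. These are letter matches in a window and not measured binding. Between alisertib and control, the 27 core genes with a run of at least 8 near the start had a median log2 ratio of 0.31 and the 30 without one 0.26. The corresponding medians of control over bone marrow were 0.40 and 0.40.

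The libraries held 19373087 counts with alisertib, 21959748 in control and 21987097 in bone marrow. Each held some counts of other cells' markers. In that order, 16 T and NK cell markers summed to 72.3, 22.1 and 148 CPM, and 12 B and plasma cell markers to 48.5, 6.40 and 228 CPM. Cd3d alone gave 136 CPM of the T and NK sum in bone marrow. Of 14 T and NK markers past the filter, 11 were called higher and 2 lower in alisertib over bone marrow, beside 18.7% and 22.3% of all genes tested. In control over bone marrow 4 were called higher and 2 lower, beside 18.3% and 22.9%. Between alisertib and control, 9 of 14 T and NK markers past the filter and 8 of 11 B markers were called higher by the 2-fold rule given below, beside 1.8% of all genes tested. The NK genes Klrb1c and Ncr1 and the B precursor gene Vpreb1 were at 0 with alisertib, Klrb1c, Vpreb1 and Rag1 at 0 in control, and the T cell receptor gene Trac at 0 in bone marrow. The 11 neutrophil markers, none at 0 in any library, summed to 14923 CPM with alisertib, 34356 in control and 107286 in bone marrow. Of them 7 were called lower with alisertib than in control, beside 1.18% of all genes tested. The 10 monocyte and macrophage markers, none at 0, summed to 779, 644 and 330 CPM, the same order of libraries as the ribosomal protein genes, with 0 called between alisertib and control. Apoe alone gave 459 CPM of this sum with alisertib and 338 in control. Between alisertib and control, 6 of these 10 markers had a log2 ratio above 0 and 4 below. The 10 markers of immature granulocytes and progenitors summed to 76.7, 67.6 and 637 CPM, with Ctsg at 0 with alisertib. The part of these cell differences in the ribosomal protein ratios was not tested.

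Counts of the 90 genes made up 1.25% of all counts with alisertib (242920 counts, exact 95% interval 1.25 to 1.26), 0.904% in control (198584, 0.900 to 0.908) and 0.794% in bone marrow (174670, 0.791 to 0.798). The share was thus highest with alisertib and lowest in bone marrow. Large subunit genes took 0.673%, 0.466% and 0.413%, and small subunit genes 0.568%, 0.429% and 0.372%, in the same order of libraries. Both subunits were ordered alike. The mitochondrially encoded protein genes, which are read by the other ribosome of the cell, also took 0.217%, 0.187% and 0.144%.

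Gene by gene, 57 of 77 core genes had their highest CPM with alisertib, the middle value in control and the lowest in bone marrow. In 8 the order was alisertib, bone marrow, control, and in another 8 it was control, alisertib, bone marrow. Bone marrow was highest for 3 genes, Rps27a, Rpl7 and Rpl7a. The plot of levels by gene shows this order as a column of points repeated down both subunits.

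**Figure D1:**
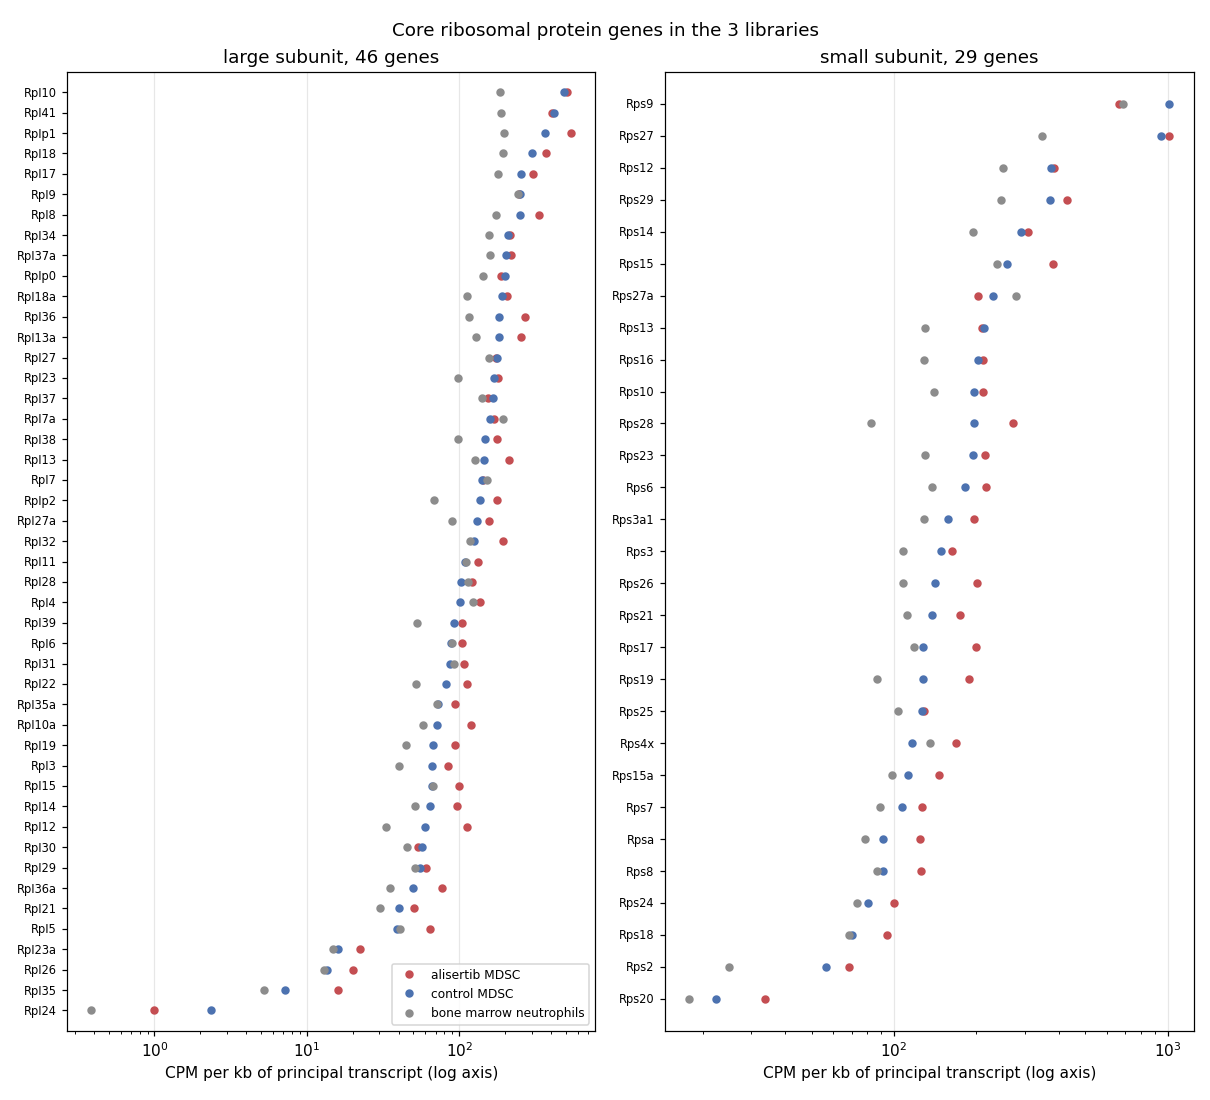
Level per length of 75 of the 77 core ribosomal protein genes (rows, ordered by the control library) in the libraries of alisertib MDSCs, control MDSCs and neutrophils, as CPM per kilobase of the principal transcript on a log axis, 1 point per library. In 55 of 75 rows the order from right to left is alisertib, control, bone marrow, and Rpl24 lies far below all others.

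Levels between genes are compared here per length, as FPKM from the deposited table. Most core proteins are used in a single copy per ribosome, yet the FPKM of the core genes spread with a standard deviation of log2 values of 1.63, 1.65 and 1.71 in the 3 libraries. The median was 74.9 with alisertib, 63.7 in control and 57.6 in bone marrow. Rplp1, a stalk protein, was highest with alisertib at 534 FPKM, and it stood at 357 in control and 196 in bone marrow. Rps12, of the small subunit, stood at 456, 448 and 304 FPKM and was the highest in the other two libraries. Rpl18, of the large subunit, was the third with alisertib (360, 291 and 193 FPKM) and Rps27, a zinc-finger protein of the small subunit, the third in control (326, 304 and 113 FPKM). Rps9 (192, 294 and 202 FPKM) was among the 3 highest in bone marrow. These highest ranks depend on the length used, as given below.

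At the other end stood Rpl24, a protein of the large subunit at the interface with the small one (ENSMUSG00000098274, chromosome 16, 55966275 to 55971435, plus strand), with 14, 31 and 6 counts, or 0.636, 1.501 and 0.250 FPKM. Rpl26 and Rpl35, both near the exit of the peptide tunnel, had 7.13, 4.8 and 4.66 FPKM and 11.8, 5.30 and 3.97 FPKM. The highest core gene exceeded the lowest 840-fold with alisertib, 298-fold in control and 1218-fold in bone marrow. Divided by the length of the principal transcript in place of the authors' length, the standard deviations were 1.34, 1.37 and 1.45, and Rpl24, Rpl35 and Rpl26 stood last in all 3 libraries. By that length the 3 highest were Rps27, Rps9 and Rplp1 with alisertib and Rps9, Rps27 and Rpl10 in control. In bone marrow they were Rps9, Rps27 and Rps27a. Rps12 and Rpl18 were not among the 3 highest in any library by that length or by exon union.

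Ribosomal protein genes have many near-identical pseudogenes, and a read that matches several places may be dropped or assigned to a copy. The median core gene shared 57.4% of its 50-base words with transcripts of other genes, with a highest value of 98.7% at Rps27, and 18 of 77 shared 80% or more. Rpl24 shared 81.7%, Rpl35 95.1%, Rpl5 93.8% and Rpl10 92.1%. Across the 77 genes, the Spearman correlation of shared words with counts per kilobase of the principal transcript was -0.10, -0.11 and -0.05 in the 3 libraries, given as a description over genes that share 1 library. Rps27 thus had among the highest levels with nearly all of its words shared, while Rpl24 had the lowest. No source used here says how the authors counted such reads, and levels compared between these genes are uncertain for that reason.

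**Figure D2:**
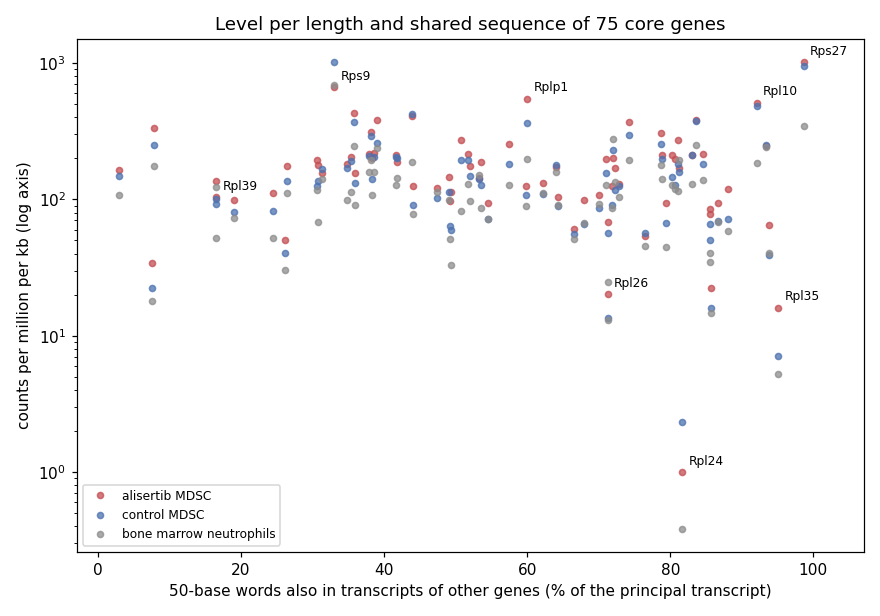
CPM per kilobase of the principal transcript (log axis) against the percentage of 50-base words shared with transcripts of other genes, for 75 of the 77 core genes in 3 libraries, with 8 genes named. Genes with 80% or more shared words hold both the lowest gene (Rpl24) and, with alisertib, the highest (Rps27).

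The comparison of alisertib with control MDSCs asks how the transcripts of the ribosome differed after the drug. Of the 90 genes, 87 passed the filter of 1 CPM in at least 1 library (Rpl10-ps3, Rpl36a-ps1 and Rpl39l did not, with at most 15 counts in any library). Their median log2 ratio was 0.27, a 1.21-fold higher level with alisertib, beside 0.00 over all 13019 genes tested. The ratio lay above 0 for 73 and below 0 for 14, and the whole counting interval lay above 1 for 64 and below 1 for 5. The shift was small: a gene was called when the interval's bound nearest to 1 was at least 2-fold, and by that rule 0 members were higher and 0 lower, beside 1.8% of all genes tested higher and 1.18% lower. With a bound of 1.5-fold, 4 members were higher and 0 lower, against 4.74% and 4.92% of all genes, and the 4 of 87 (4.6%) are near that background. The family thus showed many small ratios above 1 and no large one.

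Rpl35, at the tunnel exit, had 313 counts with alisertib, 132 in control and 115 in bone marrow. The alisertib library stood alone, 2.23-fold (1.82 to 2.76) above control. Rpl12, which anchors the stalk that recruits translation factors (ENSMUSG00000038900, chromosome 2, 32961559 to 32965345, plus strand), had 2902, 1442 and 943 counts and was 1.89-fold (1.78 to 2.02) higher than in control. Rpl10a, of the mobile L1 stalk through which spent tRNA leaves, had 1799, 1014 and 979 counts, a ratio of 1.67 (1.55 to 1.81).

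Rpl5 and Rpl11 bind the 5S ribosomal RNA in the 5S RNP, a particle also known for restraining Mdm2, the inhibitor of p53, when ribosome assembly fails. Rpl5 had 2746, 1559 and 1916 counts and was 1.66-fold (1.56 to 1.77) higher with alisertib than in control. Rpl11 had 2282, 1771 and 2125 counts, a ratio of 1.21 (1.14 to 1.29). Their counting intervals do not overlap, so the counted ratios of the partners in this particle were unequal in these libraries. The core genes also differed among themselves, with quartiles of the log2 ratio of 0.10 and 0.49. The intervals leave out how multiply mapped reads were assigned. Rpl5 shared 93.8% of its words with other genes and Rpl11 62.2%.

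Rps9, which lines the mRNA entry of the small subunit (ENSMUSG00000006333, chromosome 7, 3703993 to 3706897, plus strand), went the other way. It had 10356 counts with alisertib, 14889 in control and 11903 in bone marrow, more than any other member in each library. The control library stood above the other two, and the level with alisertib was 1.53-fold (1.49 to 1.57) lower than in control, short of the 1.5-fold bound. Rps9 gave 4.26% of all ribosomal protein counts with alisertib, 7.498% in control and 6.82% in bone marrow. The log2 ratio was -0.61, and it was -0.34 with total counts and -0.67 with DESeq2 size factors.

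Few other core genes lay below 0. Rps27a, which is made as a fusion with ubiquitin, had 2674, 2865 and 4104 counts and was 1.14-fold (1.08 to 1.201) lower than in control. Rpl37 (2696, 2726 and 2718 counts) was 1.07-fold (1.02 to 1.13) lower and the stalk protein Rplp0 (5327, 5335 and 4512) 1.06-fold (1.02 to 1.11) lower. All 3 turned above 0 with total counts, to log2 ratios of 0.08, 0.17 and 0.18, and with totals without the 100 most abundant genes, to 0.02, 0.10 and 0.11. Rpl24 was 2.31-fold lower, but its 14 and 31 counts leave an interval of 1.22 to 4.79. The intervals of Rpl27, Rpl30, Rpl41, Rpl9 and Rps13, the other core genes with a log2 ratio below 0, included 1.

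**Figure D3:**
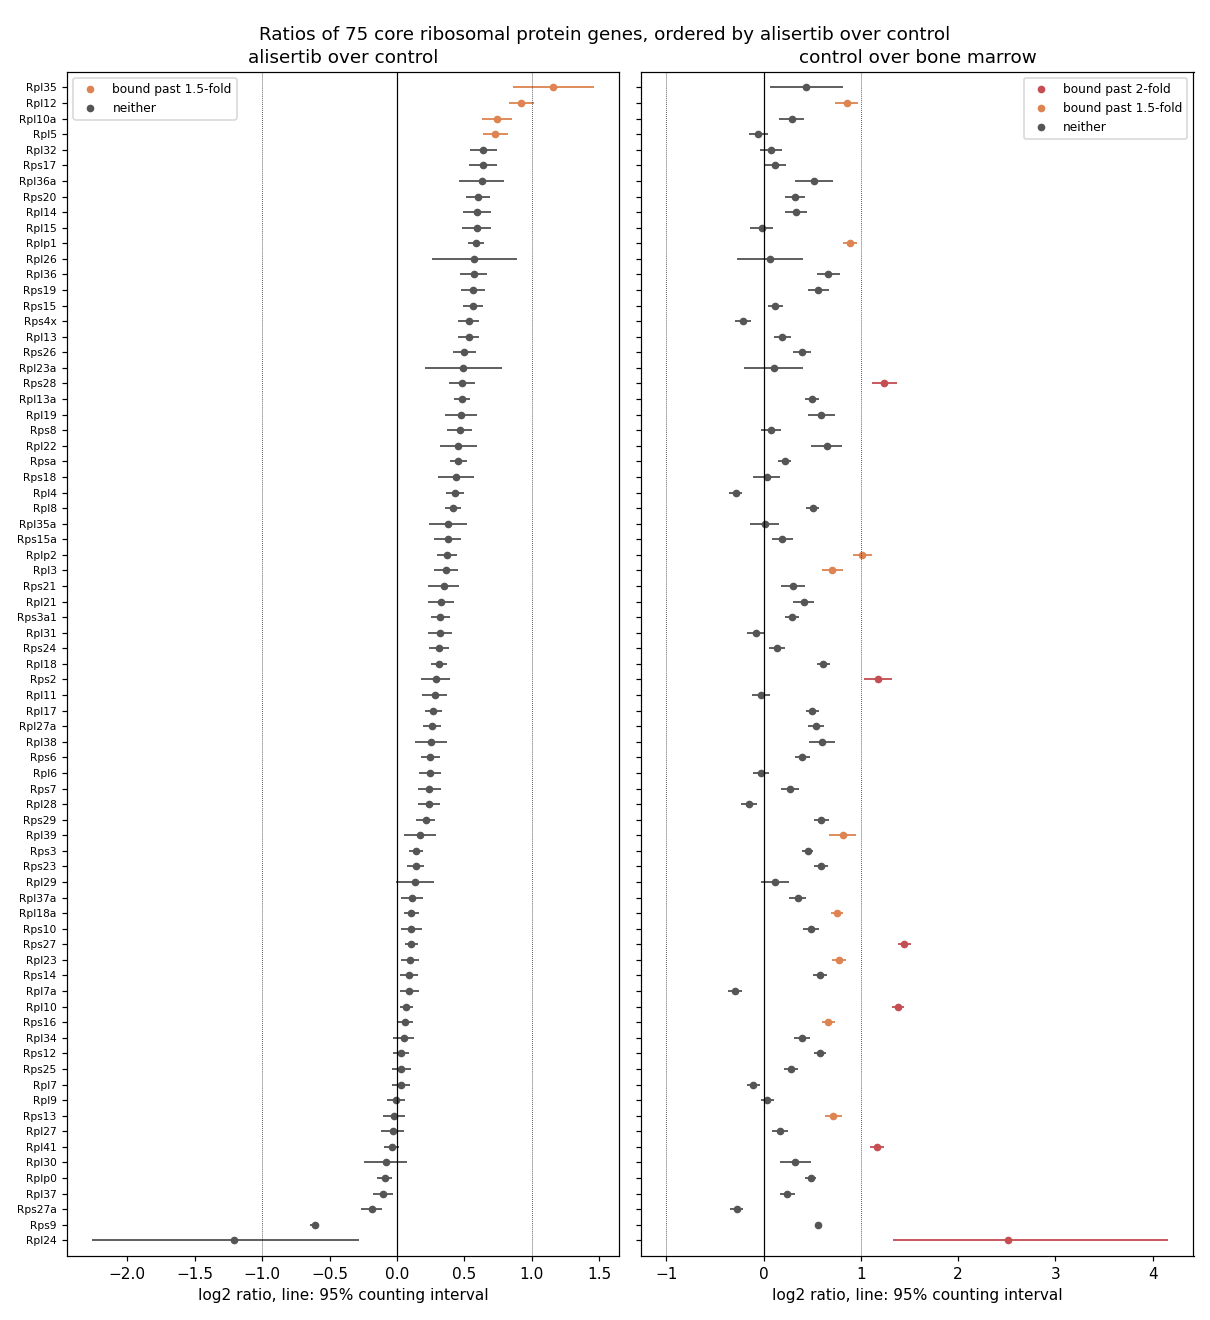
Log2 ratios of 75 of the 77 core genes (rows) with 95% counting intervals, alisertib over control on the left and control over bone marrow on the right, in the same row order. On the left 65 of 75 points lie above 0 and none has a bound past 2-fold, and on the right 6 do, in rows that are spread over the order of the left panel.

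By place in the ribosome, 9 of 9 proteins around the tunnel exit (median log2 ratio 0.46), 4 of 4 at the mRNA exit (0.47) and 14 of 14 mouse counterparts of genes mutated in Diamond-Blackfan anaemia, an inherited failure of red cell production (0.43), lay above 0. So did 5 of 5 listed for the mRNA entry and decoding site (0.14), a list that does not hold Rps9, and 67 of all 77 core genes. The median was 0.31 for the core large subunit genes and 0.29 for the small subunit, between those of the lists, and no difference between lists was tested. Rps19, the gene most often mutated in that anaemia, had 2480, 1579 and 1263 counts, a ratio of 1.48 (1.39 to 1.58). The acidic stalk proteins Rplp1 (5649, 3543 and 2262 counts, ratio 1.5, 1.44 to 1.57) and Rplp2 (3550, 2586 and 1510, ratio 1.29, 1.23 to 1.36) lay above 0, and their anchor Rplp0 below it with TMM scaling, though not with total counts, as given above.

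Abundance and length were compared because these mRNAs are short and abundant. Among other protein-coding genes, those with a mean of 100 CPM or more had a median log2 ratio of -0.26 (1968 genes), those with a transcript of up to 1 kb -0.07 (664 genes), and those with both -0.42 (73 genes). Those at 10 to 100 CPM had -0.03 (4416 genes) and those below 10 CPM 0.25 (4764 genes). The core genes in the same bands had 0.14 at 100 CPM or more (46 genes), 0.46 at 10 to 100 CPM (27 genes) and 0.53 below 10 CPM (4 genes), and 0.11 with both a short transcript and 100 CPM or more (31 genes, 24 above 0). In each of these 4 bands the core median lay above that of the other genes, by a difference that was not tested. Within the core genes the ratio still fell with level (Spearman correlation -0.45 over 77 genes, and -0.35 over 11148 other protein-coding genes), as the low ratio of Rps9 shows. By shared sequence, the 7 core genes with under 20% shared words had a median of 0.42, all above 0, the 52 in between 0.27, and the 18 with 80% or more 0.40.

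The size of this shift depends on the scaling. Total counts in place of TMM raised all log2 ratios of this comparison by 0.27, as much as the median itself, which became 0.54 with 85 of 87 above 0. Rpl35 and Rpl12 then had bounds past 2-fold. With DESeq2 size factors the median was 0.22, with 68 of 87 above 0.

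Control MDSCs were set against bone marrow neutrophils to show how cells of the tumour differ from those of mice without one. The 87 genes had a median log2 ratio of 0.41 (1.33-fold higher in control MDSCs), beside -0.14 over all genes tested, and 74 lay above 0 and 13 below. Of them 7 (8.05%) were called higher and 0 lower, against 18.3% and 22.9% of all genes. With a bound of 1.5-fold, 19 (21.8%) were higher and 0 lower, against 25.4% and 30.9%. The 10 monocyte and macrophage markers had 5 called higher and 1 lower in this comparison, and 9 of the 10 markers of immature granulocytes and progenitors were called lower. Their part in the ratios was not tested. The shares of members called higher lie below the background, and the family had no gene called lower in a comparison in which lower calls were the more common.

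Rps27 had 7271 counts with alisertib, 6362 in control and 2759 in bone marrow, and was 2.72-fold (2.60 to 2.85) higher in control MDSCs than in bone marrow. Rpl10, which joins late in assembly beside the catalytic centre, had 8456, 7583 and 3436 counts, a ratio of 2.61 (2.503 to 2.71). In both genes the tumour libraries lay close together with TMM scaling, within 1.08-fold, and well above bone marrow. The log2 ratios of alisertib over control were 0.105 for Rps27 and 0.069 for Rpl10, and total counts raised each by 0.27. Rps28, at the mRNA exit, had 2221, 1496 and 748 counts, 2.36-fold (2.16 to 2.58) higher than in bone marrow, with each library apart from the others.

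Rps2, at the mRNA entry, had 1561, 1205 and 630 counts (2.26-fold, 2.05 to 2.49), and Rpl41, the shortest protein of the ribosome, 4931, 4771 and 2514 (2.24-fold, 2.14 to 2.35). These and Rps28 lost the call with total counts, which lowered all log2 ratios of this comparison by 0.24: the values were then 0.94 for Rps2, 0.93 for Rpl41 and 1.001 for Rps28. Rpl24, at 31 and 6 counts, was 5.72-fold higher with an interval of 2.51 to 17.9. Rpl9-ps1, a copy of Rpl9, had 89, 42 and 2 counts, a ratio of 20.1 with an interval of 6.45 to 212. Rpl9 itself had a log2 ratio of 0.04, and the coding sequences of the pair are 94.8% identical. Of its 50-base words, Rpl9-ps1 shared 8.73% with transcripts of other genes, while Rpl9 shared 93.3%. How the reads of the pair were split was not tested.

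Bone marrow was the higher library for a few members. Rpl7l1, a paralogue of Rpl7, had 530, 502 and 885 counts and was 1.49-fold (1.34 to 1.67) lower in control MDSCs. Rpl7a (3213, 2838 and 4118) was 1.23-fold (1.17 to 1.29) lower, Rpl4, which lines the tunnel wall (4348, 3038 and 4370), 1.22-fold (1.16 to 1.28) lower, and Rps27a 1.21-fold (1.16 to 1.27) lower. Rpl5 and Rpl11, at log2 ratios of -0.06 and -0.02, had intervals that included 1.

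Among other protein-coding genes of 100 CPM or more the median log2 ratio was 0.44, beside 0.40 for the 46 core genes at that level, and it was 0.84 for those that also had a transcript of up to 1 kb, beside 0.40 for 31 core genes. In the lower bands the core median lay above that of the other genes. It was 0.33 for 27 core genes at 10 to 100 CPM, beside -0.23, and 0.27 for 4 core genes below 10 CPM, beside -0.58. These differences were not tested. The median of the members was 0.17 with total counts, with 59 of 87 above 0, and 0.49 with DESeq2 size factors.

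Alisertib MDSCs and bone marrow neutrophils stood farthest apart. This comparison shares a library with each of the previous ones and is given for its values. The median log2 ratio was 0.69 (1.62-fold) beside -0.10 over all genes tested, and 82 of 87 genes lay above 0. Called higher were 13 (14.9%), and 0 were lower, against 18.7% and 22.3% of all genes, and with a bound of 1.5-fold 45 (51.7%) and 0, against 26% and 30.7%. At the lower bound the share of members higher is about 2 times the background, and at the upper bound it is below it. The 90 genes had a median of 123 CPM with alisertib, beside 9.20 for all genes tested, and higher counts give narrower intervals. In bands of level, the core median was 0.63 at 100 CPM or more, beside 0.24 for other protein-coding genes. It was 0.67 beside 0.44 when the transcript was also up to 1 kb, and 0.85 beside -0.25 at 10 to 100 CPM. Below 10 CPM it was 0.97 beside -0.25. These differences were not tested. Against bone marrow 7 of 10 monocyte and macrophage markers were called higher and 1 lower with alisertib, and 9 of 10 immature granulocyte and progenitor markers lower. Every scaling tried gave a median between 0.69 and 0.72 here and 13 genes called higher.

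Rpl12 was 3.42-fold (3.18 to 3.69), Rps28 3.30-fold (3.04 to 3.59), Rpl35 3.02-fold (2.44 to 3.78) and Rps27 2.93-fold (2.80 to 3.06) higher with alisertib than in bone marrow. Rplp1 (2.78-fold, 2.64 to 2.92) and Rplp2 (2.61-fold, 2.46 to 2.78) were called too, while Rplp0, which carries them in the stalk, was 1.31-fold (1.26 to 1.37) higher. Rps2 (2.75-fold), Rpl10 (2.74-fold), Rpl36 (2.35-fold), Rps19 (2.18-fold) and Rpl41 (2.18-fold) were also past the bound. Rps19bp1, which binds Rps19 and the deacetylase Sirt1, had 247, 168 and 100 counts and was 2.74-fold (2.17 to 3.5) higher. Rpl9-ps1, at 89 against 2 counts, had a ratio of 39.8 with an interval of 13.3 to 415. The lowest were Rpl7l1 (1.502-fold lower, 1.35 to 1.68), Rps27a (1.38-fold lower, 1.32 to 1.45), Rpl7a (1.15-fold lower, 1.10 to 1.21) and Rpl7 (1.06-fold lower, 1.01 to 1.11).

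The paralogues gave different shares of the level of their pairs. Rpl36al gave 55.9% of the FPKM of its pair with Rpl36a with alisertib, 62.6% in control and 58.1% in bone marrow, and their coding sequences are 87.7% identical. Rpl22l1 gave 20.8%, 26.0% and 29.2% of its pair with Rpl22 (68.8% identical), with 197, 181 and 160 counts. Rpl7l1 gave 13.6%, 13.9% and 18.3% of its pair with Rpl7 (56.3% identical). Rps27l, a known target of p53, gave 4.11%, 3.75% and 10.7% of its pair with Rps27 (76.2% identical). Its own counts of 244, 194 and 259 lay close together, while Rps27 was lower in bone marrow. The shares depend on the lengths behind the FPKM. Per kilobase of principal transcript, Rpl36al stood at 73.7, 62.9 and 36.4 CPM, beside 77.5, 50.1 and 35 for Rpl36a. With alisertib, Rpl7l1 stood at 9.80 beside 143.9 for Rpl7, Rpl22l1 at 17.2 beside 111.8 for Rpl22, and Rps27l at 23.6 beside 1015.3 for Rps27. These copies were thus smaller parts of their pairs than by FPKM.

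Rpl3l, best known from striated muscle, had 61, 67 and 37 counts, and Rpl39l, best known from testis, 1, 1 and 0. The retrogene Rps27rt (208, 212 and 108 counts) has a coding sequence identical to that of Rps27, and its ratio of control to bone marrow, 2.31 (1.83 to 2.95), is close to that of Rps27. Rpl10-ps3 (3, 15 and 7 counts) is identical in coding sequence to Rpl10 and Rps12-ps3 (74, 82 and 70) to Rps12, and Rpl9-ps6 (40, 34 and 27) is 99.8% identical to Rpl9. Reads of such copies and of the core genes are not separable with certainty. A further 102 pseudogenes of the family that are not annotated as protein coding held 0.0362%, 0.0261% and 0.0184% of counts, a lower total with the same order of libraries as the members.

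Fau and Rack1, ribosomal proteins outside the symbol rule, lay on either side of 0 between alisertib and control with TMM scaling. Fau, which makes a ubiquitin-like protein fused to the small subunit protein eS30, had 15727, 17474 and 8897 counts, 1.18-fold (1.16 to 1.21) lower with alisertib than in control and 2.32-fold (2.26 to 2.38) higher in control than in bone marrow. Rack1, a scaffold at the head of the small subunit, had 3522, 2458 and 2496 counts, 1.35-fold (1.28 to 1.42) higher with alisertib than in control and 1.16-fold (1.10 to 1.23) higher in control than in bone marrow. With total counts the log2 ratio of Fau between alisertib and control turned to 0.03, and that of Rack1 between control and bone marrow to -0.02.

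Mitochondrial ribosomal protein genes, whose products build the separate ribosome of mitochondria, lay on the other side of 0 from the cytosolic ones in the comparisons with bone marrow, but not between alisertib and control. Of 76 of 77 past the filter, 49 lay above 0 between alisertib and control. None was called, beside 1.8% of all genes higher and 1.18% lower. The median log2 ratio was 0.13. Between control and bone marrow it was -0.67, with 2 called higher (2.63%) and 11 lower (14.5%), both below the 18.3% and 22.9% of all genes. Mrpl52 (608, 339 and 50 counts) was 7.94-fold (5.94 to 11) higher in control than in bone marrow, and Mrpl24 (195, 137 and 527 counts) 3.25-fold (2.69 to 3.96) lower.

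Genes of ribosome biogenesis, which transcribe and process ribosomal RNA and assemble the subunits, had a median of 0.36 between alisertib and control over 51 genes, with 43 above 0. Of the 51, 2 (3.92%) were called higher and 0 lower, beside 1.8% and 1.18% of all genes. Nop58, a core protein of the complexes that methylate ribosomal RNA, had 393, 136 and 190 counts (2.71-fold, 2.23 to 3.33), and Nop16, an assembly factor of the large subunit, 166, 51 and 33 (3.04-fold, 2.23 to 4.28). Nucleolin, Ncl, had 6377, 4050 and 2605 counts, 1.48-fold (1.42 to 1.54) higher than in control. Between control and bone marrow the median was 0.21 (-0.03 with total counts). Called were 8 higher (15.7%) and 4 lower (7.84%), both below the 18.3% and 22.9% of all genes. Heatr1, which serves ribosomal RNA transcription, had 2518, 3280 and 368 counts and was 10.5-fold (9.45 to 11.8) higher in control than in bone marrow, and Polr1a, the largest subunit of RNA polymerase I, had 270, 188 and 3739 and was 16.8-fold (14.5 to 19.6) lower.

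Other mRNAs known for TOP tracts had a median of 0.09 between alisertib and control (17 genes). None was called, beside 1.8% of all genes higher and 1.18% lower. Between control and bone marrow the median was 0.24, and -0.003 with total counts. Of the 17, 4 (23.5%) were called higher and 0 lower, beside 18.3% and 22.9% of all genes. The elongation factor gene Eef1a1 had 38538, 34200 and 19651 counts, 1.06-fold (1.05 to 1.08) higher with alisertib than in control and 2.06-fold (2.02 to 2.09) higher in control than in bone marrow. Tpt1 (36057, 38586 and 11874 counts) was 1.14-fold (1.12 to 1.15) lower (a log2 ratio of -0.19, but 0.08 with total counts) and 3.84-fold (3.76 to 3.92) higher. Initiation factor genes (32) had medians of 0.11 and 0.06, the latter -0.18 with total counts. With bone marrow as reference, Eif5 (2.56-fold, 2.51 to 2.61), Eif1, Eif4a1 and Eif4e (4.58-fold, 4.14 to 5.07) were called higher in control, with 0 lower. They are 12.5% of the list, below the 18.3% of all genes called higher, and 22.9% of all genes were called lower.

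Of 16 genes of the mTORC1 axis, 0 were called between alisertib and control (median 0.05), beside 1.8% of all genes higher and 1.18% lower. Sesn2, a stress-induced inhibitor of mTORC1, had 7393, 12363 and 2108 counts and was 1.78-fold (1.73 to 1.83) lower with alisertib. Against bone marrow, 4 were called higher (25%) and 3 lower (18.8%) in control, beside 18.3% and 22.9% of all genes. The median of 0.13 was -0.11 with total counts. Sesn2 was 6.93-fold (6.61 to 7.26) higher and Ddit4, another stress-induced inhibitor, 7.28-fold (6.58 to 8.08), with the activator Rheb 2.58-fold (2.39 to 2.79) higher and the translation repressor Eif4ebp2 2.34-fold (2.20 to 2.49) lower. Among 16 genes that clear stalled ribosomes, 1 (6.25%) was called higher with alisertib than in control, beside 1.8% of all genes, and 0 lower. It was Usp10, a deubiquitinase of small subunit proteins, at 173, 40 and 65 counts (4.03-fold, 2.87 to 5.89). Rnf10, a ubiquitin ligase for small subunit proteins, had 3229, 3014 and 11245 counts and was 3.16-fold (3.03 to 3.29) lower in control than in bone marrow.

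**Figure D4:**
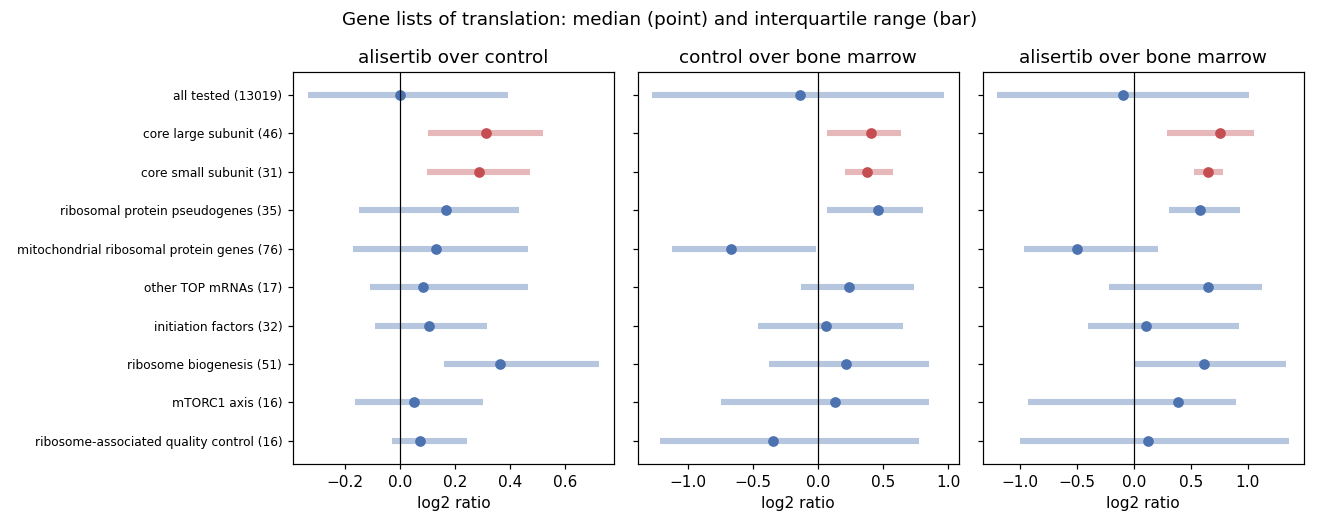
Median log2 ratio (points) and the interquartile range of the genes (bars) for gene lists of translation in the 3 comparisons, which have different horizontal scales, with the number of genes past the filter in brackets. The core subunit lists lie above 0 in each panel, and the mitochondrial ribosomal protein genes below 0 in both comparisons with bone marrow.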

How the data were processed

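The authors deposited raw counts of reads per gene and, for the same 3 libraries, FPKM values (fragments per kilobase, scaled to library depth). The submitters' processing notes name CASAVA 1.8, STAR 2.5.1b, mm9 and mm10 with no role. How reads were counted, by which annotation and with what rule for multiply mapped reads is not stated. Per the labels' protocols, sorted cells (FACSAria, purity above 90%) gave Trizol RNA for NEBNext Ultra libraries.

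Symbols, positions and lengths came from GENCODE M21 (GRCm38). The deposited FPKM values fitted its exon lengths within 0.5% for 52 of 83 members over 50 counts, so other lengths are uncertain. Counts were scaled by TMM (edgeR 4.0.16, R 4.3.3, factors 1.071, 0.890 and 1.049 for alisertib, control and bone marrow), and genes with at least 1 CPM in at least 1 library were kept. Log2 ratios used counts plus 0.5, with exact 95% (Clopper-Pearson) intervals given the summed count. Intervals cover counting error only, and no molecular identifiers are stated, so reads may not be independent molecules. The procedure was tested on simulated data. DESeq2 1.42.0 size factors were among the alternatives. Shared words are 50-base words of the principal transcript found in another gene's transcript.

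The members and lists were chosen with earlier results of these data known. Genes named are members called in a comparison, the 4 highest and 4 lowest ratios per comparison at 10 CPM or more, the 3 highest by FPKM per library, the 5S RNP, stalk, paralogue and non-subunit lists, and up to 4 genes of other lists. A few such genes are not reported here, and figures leave them out. Rpl24, Rpl26 and near-identical copies were also named after their values were seen. The promoter words, shared words and bands of level and length were chosen after seeing the data.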

Additional observations from a re-analysis of the deposited data

How the results depend on the processing

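With 1 library per group, the limits are those of single pools: no replicate could be left out, and cell makeup and RNA amount cannot be told apart from treatment or tissue. No paired analysis was possible because each group has 1 library and no test was run. The median between alisertib and control became 0.537 with total counts and 0.472 with totals without the 100 most abundant genes, each with 2 members called higher. That of control over bone marrow became 0.173 and 0.227, each with 4 called. A bound of 1.5-fold called 4, 19 and 45 members higher in the 3 comparisons, and one of 3-fold 1 in control over bone marrow and 3 in alisertib over bone marrow. Core genes sharing under 80% of words, a setting chosen after seeing the data, gave 3 and 7 of 59 called higher in those comparisons. The shares of all genes were 18.3% and 18.7%. For the other scalings and the 3-fold bound the share of all genes called was not computed. Those counts have no background beside them and cannot be read as a result about the members. The share of counts became 1.29%, 0.934% and 0.809% over protein-coding genes and 1.87%, 1.41% and 1.19% without mitochondrially encoded and abundant other genes. The spread of levels became 1.46, 1.47 and 1.53 per kilobase of exon union and 1.34, 1.37 and 1.45 per kilobase of principal transcript, the latter added after seeing the data. Starts in a run of at least 5 became 73.7% of core genes, beside 50.1% of all, when the run could lie within 10 bases. The other 85 alternative values stayed within their tolerance. For a median this was the typical counting error of a single member, a looser rule than the counting error of the median itself. For shares it was the exact interval, for counts of genes 1.5 times, and for the spread of levels 0.1. FPKM plus 0.1 or 1 gave medians only, as FPKM has no counting interval. Total counts also moved the 6 other lists in 2 comparisons each, and in control over bone marrow turned the medians of biogenesis (-0.03), initiation factor (-0.18), mTORC1 (-0.11) and other TOP genes (-0.003) below 0. The cause of these changes, beyond the constructed shift of the scaling, was not tested.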
